A study of Rattus norvegicus with 42 samples.

Results

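The rows of both count tables that carry the symbols Vat1l, Fstl4, Tmem45b, C2cd4b, Tmem72, Scn10a, Rasgrf1 and Cpne5 were followed through the lungs of 42 rats. These 8 genes, of 30045 symbols in each table, were chosen because they had some of the largest rises with silica in these same tables and because little is known of them in the lung. The size of their rise with silica is therefore what selected them, and it is given below as a description, with no test. All rats were male Fischer 344, bought at 3 months of age. They ate a high-fat diet (HFD, 60% of kcal as fat) or a regular diet (RD, 18% of kcal as fat) for the whole experiment, and breathed crystalline silica (15 mg/m3, 6 hours a day for 5 days) or clean air. Total RNA of a piece of lung was sequenced 3 or 9 months after the exposure. At 3 months there were 5 HFD silica, 5 RD silica, 5 HFD air and 4 RD air rats, and at 9 months 6 HFD silica, 5 RD silica, 6 HFD air and 6 RD air rats.

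Inhaled crystalline silica lodges in the alveoli, where macrophages take it up and cannot degrade it, and the lung answers with lasting inflammation, growth of alveolar type 2 cells, surfactant build-up and scarring. The 8 genes come from unrelated families. Fstl4 encodes a secreted follistatin-like protein, a family that binds growth factors and matrix. Tmem45b and Tmem72 encode membrane proteins, and Scn10a encodes the pore-forming subunit of a sodium channel best known from pain-sensing neurons. Rasgrf1 encodes an exchange factor that activates Ras and Rac and is best known from brain. Cpne5 encodes a copine, a protein that binds membranes in response to calcium, C2cd4b a nuclear protein studied in pancreatic islets, and Vat1l a relative of the quinone oxidoreductases.

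Library totals ran from 5143424 to 8259635 counts at 3 months and from 3078216 to 8319382 at 9 months, so that 1 count was worth 0.124 to 0.193 CPM (counts scaled to a library total of 1000000) at 3 months and 0.121 to 0.342 CPM at 9 months. Several of the genes had a handful of counts per library in air, and raw counts are given there. The share of counts on the ribosomal RNA genes Rnr1 and Rnr2 was 0.957% to 1.26% in the group means at 3 months. At 9 months it was 7.66% ± 0.217 in HFD silica, 3.67% ± 1.07 in RD silica, 6.21% ± 1.11 in HFD air and 1.22% ± 0.699 in RD air lungs (SD, n = 6, 5, 6 and 6), so it moved with both factors at that time. The 2 time points are separate tables, each scaled within itself except for the correlations and likenesses below, where both were scaled together. No test was made between them. Nothing in the labels ties rats of different groups to each other.

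Every one of the 8 genes was higher in silica than in air lungs at 9 months on the high-fat diet with no overlap between rats, and 7 of 8 were on the regular diet, the exception being C2cd4b. At 3 months 4 genes (Vat1l, Fstl4, Tmem45b and C2cd4b) were separated in that way on both diets, Tmem72, Scn10a and Cpne5 overlapped, and Rasgrf1 was at the same handful of counts in all groups. Of all genes tested, every silica rat lay above every air rat for 7.37% (high-fat) and 8.77% (regular) at 3 months, and for 16.8% and 14% at 9 months. Because the rule picked the genes on this contrast, nothing is read from their count against these shares. At 3 months 5 of the 8 genes passed the filter on low counts (15234 genes tested). Scn10a, Rasgrf1 and Cpne5 did not, and have no fitted fold change there. C2cd4b had enough counts in HFD air rats too (median of 12), while Vat1l, Fstl4, Tmem45b and Tmem72 passed through their silica groups. All 8 passed at 9 months (15276 genes tested). Fstl4 and C2cd4b also had enough counts in RD air rats there (medians of 22.5 and 14.5), while the other genes passed through their silica groups.

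**Figure D1:**
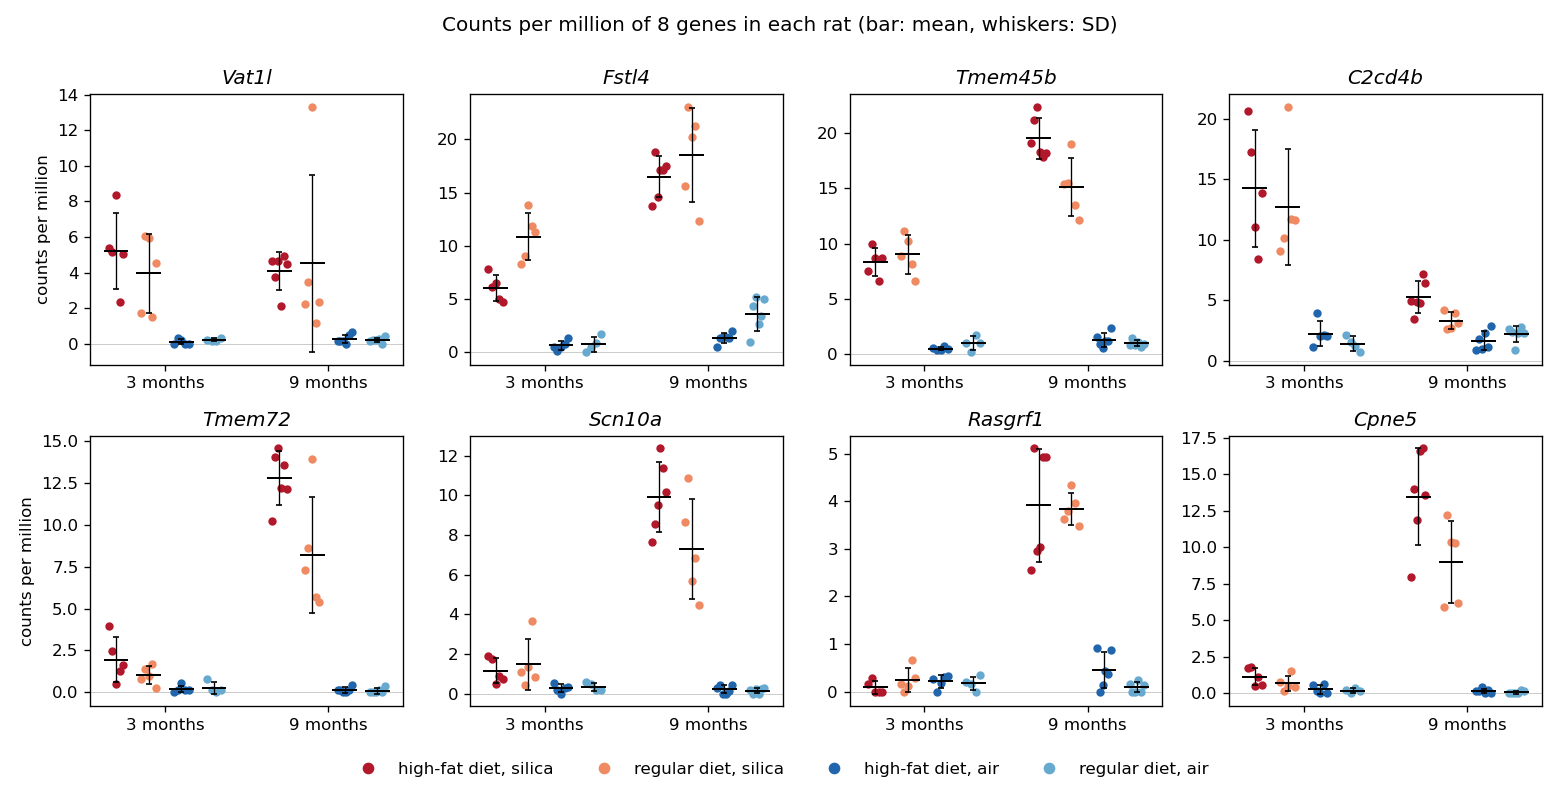
CPM (vertical axes, linear, each gene on its own scale) of the 8 genes in each of the 42 rats (points), by group at 3 and 9 months after exposure; bars are group means and whiskers SDs. Rasgrf1 and Cpne5 stand apart from air at 9 months, while C2cd4b is highest in the silica rats at 3 months, at 14.3 CPM (high-fat) and 12.7 CPM (regular) on average.

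Fstl4, the secreted follistatin-like protein, was at 7.87, 6.15, 6.47, 5.0 and 4.72 CPM in the 5 HFD silica rats at 3 months, against 4, 1, 3, 5 and 8 raw counts in the 5 HFD air rats. In rats on the regular diet it was at 8.26, 9.07, 13.9, 11.9 and 11.3 CPM in silica, against 0, 3, 5 and 10 raw counts in air. All 10 silica rats were far above all air rats, and the HFD silica rats all lay below the RD silica rats. At 9 months HFD silica lungs had a lowest value of 13.7, a median of 17.2 and a highest of 18.8 CPM, against a lowest value of 0.459, a median of 1.39 and a highest of 1.96 CPM in HFD air lungs. In RD silica rats there were 15.6, 23.1, 20.2, 21.2 and 12.4 CPM, against a lowest value of 0.978, a median of 3.89 and a highest of 5.19 CPM in RD air lungs. Here the air lungs were not at the floor: 5 of 6 RD air rats were above every HFD air rat, so the fold against air was smaller on the regular diet although the silica levels of the 2 diets overlapped. The log2 fold change of silica over air was 3.15 ± 0.47 (SE) on the high-fat and 3.79 ± 0.49 on the regular diet at 3 months, and 3.62 ± 0.31 and 2.39 ± 0.23 at 9 months. The RD value at 3 months was 4.52 without RD air rat 4, which held 10 of that group's 18 counts.

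Tmem45b, a membrane protein found on epithelial surfaces, varied little among silica rats of a group. At 3 months it was at 7.56, 9.96, 8.71, 6.61 and 8.7 CPM in HFD silica rats, against 4, 2, 2, 5 and 3 raw counts in HFD air rats. It was at 8.89, 11.1, 10.3, 8.19 and 6.63 CPM in RD silica rats, against 5, 1, 10 and 6 raw counts in RD air rats. Silica and air did not overlap and the 2 diets did. At 9 months it reached a lowest value of 17.8, a median of 18.7 and a highest of 22.4 CPM in HFD silica lungs, against a lowest value of 0.533, a median of 1.19 and a highest of 2.4 CPM in HFD air lungs. On the regular diet silica rats had 15.4, 15.5, 19, 13.5 and 12.2 CPM, against a lowest value of 0.647, a median of 0.904 and a highest of 1.44 CPM in RD air lungs. The coefficient of variation among silica rats was 15.3% and 19.6% at 3 months (HFD, RD) and 9.52% and 17.2% at 9 months. The log2 fold change of silica over air was 4.00 ± 0.44 and 3.24 ± 0.38 (HFD, RD) at 3 months and 3.97 ± 0.22 and 3.91 ± 0.25 at 9 months.

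Tmem72, another membrane protein, known mainly from kidney, was low at 3 months and high in silica lungs at 9 months. At 3 months HFD silica rats had 25, 17, 4, 7 and 11 raw counts, against 0, 1, 3, 1 and 1 in HFD air rats. The RD silica rats held 5, 10, 8, 10 and 2, against 4, 1, 0 and 1 in RD air rats. Silica and air overlapped on both diets, with HFD silica rat 1 and RD air rat 1 the highest of their groups. At 9 months it stood at a lowest value of 10.2, a median of 12.9 and a highest of 14.6 CPM in HFD silica rats, against 5 raw counts in all 6 HFD air rats together. RD silica rats had 7.27, 8.61, 13.9, 5.67 and 5.41 CPM, against 4 raw counts in all 6 RD air rats together. Every silica rat was above every air rat, and among RD silica rats number 3 was the highest. Silica over air gave a log2 fold change of 3.20 ± 0.90 and 1.88 ± 0.93 (HFD, RD) at 3 months and 6.45 ± 0.82 and 5.98 ± 0.92 at 9 months. These folds rest on few air counts: the 3-month values became 3.86 without HFD air rat 3 and 2.98 without RD air rat 1, and the RD value at 9 months became 7.22 without RD air rat 6, which held 3 of the 4 counts. On leaving out each rat at 3 months, Tmem72 passed the filter in 7 of 10 fits (high-fat) and 8 of 9 (regular).

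Scn10a, the sodium channel subunit, had 12, 12, 4, 5 and 5 raw counts in HFD silica rats at 3 months, against 4, 1, 0, 2 and 2 in HFD air rats. Among RD silica rats the values were 7, 3, 11, 22 and 6, against 3, 3, 1 and 1 in RD air rats. The groups overlapped on both diets, RD silica rat 4 being the highest with 22 counts. The ratio of summed scaled counts, silica over air, was 3.96 (95% interval 1.88 to 9.32) on the high-fat and 4.08 (95% interval 1.92 to 9.97) on the regular diet, intervals that cover counting error only. At 9 months Scn10a was at a lowest value of 7.64, a median of 9.83 and a highest of 12.4 CPM in HFD silica rats, against 8 raw counts in the 6 HFD air rats together. In RD silica rats there were 8.66, 10.9, 5.69, 6.86 and 4.44 CPM, against 5 raw counts in the 6 RD air rats together. No air rat held more than 3 counts and no silica rat fewer than 23. The log2 fold change was 5.52 ± 0.60 and 5.53 ± 0.75 (HFD, RD), and 6.19 and 6.47 after adjusting for the ribosomal RNA share.

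The summed level of markers of sensory neurons, the cells best known for this channel, overlapped between silica and air lungs at 9 months on both diets. It was taken over 10 of 10 listed genes (among them Prph, Nefl, Nefm, Trpv1, P2rx3, Tac1, Scn11a, Calcb and Uchl1), and at 9 months was 3.74 to 5.47 CPM in HFD silica, 2.76 to 6.38 in RD silica, 4.44 to 6.53 in HFD air and 4.85 to 7.39 in RD air lungs. Nefm was at 0 in both silica groups at 9 months and in HFD air, and Scn11a, a neighbouring channel gene of the same neurons, at 0 in both air groups. Of the 2 sensory neuron genes with enough counts for a test at 9 months, Trpv1 was called in neither diet and Prph was lower on the high-fat diet (log2 fold change -1.73, adjusted p 0.029, edgeR). At 3 months the sum overlapped on the high-fat diet and was lower with silica on the regular diet (3.3 to 5.32 against 5.84 to 6.95 CPM). These sums rest on low levels, and which cells carried Scn10a was not tested.

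Rasgrf1, the Ras exchange factor, had too few counts at 3 months for a fitted fold change. It had 1, 2, 0, 0 and 0 raw counts in HFD silica rats, against 2, 0, 1, 2 and 2 in HFD air rats, and the groups overlapped. On the regular diet silica rats had 1, 0, 1, 4 and 2 raw counts, against 1, 1, 0 and 2 in RD air rats, again overlapping. The ratio of summed scaled counts was 0.402 (95% interval 0.0671 to 1.76) and 1.33 (95% interval 0.357 to 6.04) (HFD, RD), wide intervals in which no rise was detectable at this depth. At 9 months HFD silica rats had a lowest value of 2.55, a median of 3.99 and a highest of 5.13 CPM, against a lowest value of 0, a median of 0.40 and a highest of 0.918 CPM in HFD air rats. The RD silica rats held 3.64, 3.79, 4.35, 3.96 and 3.48 CPM, against 4 raw counts in the 6 RD air rats together. All silica rats were above all air rats. The coefficient of variation among RD silica rats was 8.67%, at 18 to 30 counts a rat, where counting error is large, so nothing is read from it. In log2 terms the fold change was 3.13 ± 0.41 on the high-fat and 4.90 ± 0.79 on the regular diet, and the lower of these has the higher air level, 17 counts in HFD air lungs against 4 in RD air lungs.

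Cpne5, the copine, had 11, 12, 4, 6 and 4 raw counts in HFD silica rats at 3 months, against 4, 1, 0, 4 and 0 in HFD air rats. RD silica rats had 5, 1, 4, 9 and 3, against 1, 0, 2 and 1 in RD air rats. Silica and air overlapped on both diets, and the ratios of summed scaled counts were 3.86 (95% interval 1.83 to 9.09) and 3.66 (95% interval 1.24 to 14.6) (HFD, RD). At 9 months Cpne5 was at a lowest value of 7.93, a median of 13.8 and a highest of 16.8 CPM in HFD silica rats, against 7 raw counts in the 6 HFD air rats together. Among RD silica rats the values were 5.89, 12.2, 10.3, 10.3 and 6.18 CPM, against 2 raw counts in the 6 RD air rats together, 4 of which had none. The groups were far apart in both diets. The log2 fold change was 6.11 ± 0.70 on the high-fat diet. With 2 air counts no fold is given for the regular diet, where the ratio of summed scaled counts was 166 (95% interval 45.6 to 1380).

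C2cd4b, which in pancreatic islets responds to inflammatory cytokines, had a higher silica level at 3 than at 9 months on both diets, each level scaled within its own table. At 3 months HFD silica rats had 20.6, 17.3, 11.1, 8.4 and 13.9 CPM, against 1.09, 3.9, 2.0, 2.13 and 2.01 CPM in HFD air rats. In RD silica rats there were 9.04, 10.2, 21, 11.7 and 11.6 CPM, against 2.12, 1.56, 1.2 and 0.682 CPM in RD air rats. No silica rat overlapped an air rat, and RD silica rat 3 stood apart at 21 CPM. At 9 months HFD silica rats had a lowest value of 3.42, a median of 4.91 and a highest of 7.13 CPM, against a lowest value of 0.918, a median of 1.44 and a highest of 2.84 CPM in HFD air rats, still without overlap. On the regular diet silica rats had 4.16, 2.58, 2.7, 3.96 and 3.09 CPM, against a lowest value of 0.865, a median of 2.32 and a highest of 2.81 CPM in RD air rats, and these overlapped. Its log2 fold change was 2.69 ± 0.39 and 3.22 ± 0.53 (HFD, RD) at 3 months and 1.78 ± 0.26 and 0.57 ± 0.26 at 9 months.

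Vat1l, the relative of the quinone oxidoreductases, varied most among silica rats of the genes that were high at both times. At 3 months HFD silica rats had 5.35, 5.13, 8.34, 2.32 and 5.02 CPM, against 0, 2, 1, 0 and 0 raw counts in HFD air rats. The RD silica rats held 1.71, 6.05, 5.94, 1.5 and 4.56 CPM, against 1, 1, 1 and 2 raw counts in RD air rats. RD silica rats 1 and 4 were the lowest, and still above every air rat. At 9 months HFD silica rats had a lowest value of 2.1, a median of 4.57 and a highest of 4.92 CPM, against 10 raw counts in the 6 HFD air rats together. RD silica rats had 2.25, 3.45, 13.3, 1.19 and 2.32 CPM, against 8 raw counts in the 6 RD air rats together. RD silica rat 3, with 89 counts, stood apart from the next rat, which had 20. Its log2 fold change was 4.15 ± 1.04 on the regular diet at 3 months, and 3.97 ± 0.92 and 4.26 ± 1.01 (HFD, RD) at 9 months. The last became 3.23 without RD silica rat 3. With 3 counts in the HFD air rats at 3 months no fold is given there, and the ratio of summed scaled counts was 57.3 (95% interval 19.3 to 280).

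**Figure D2:**
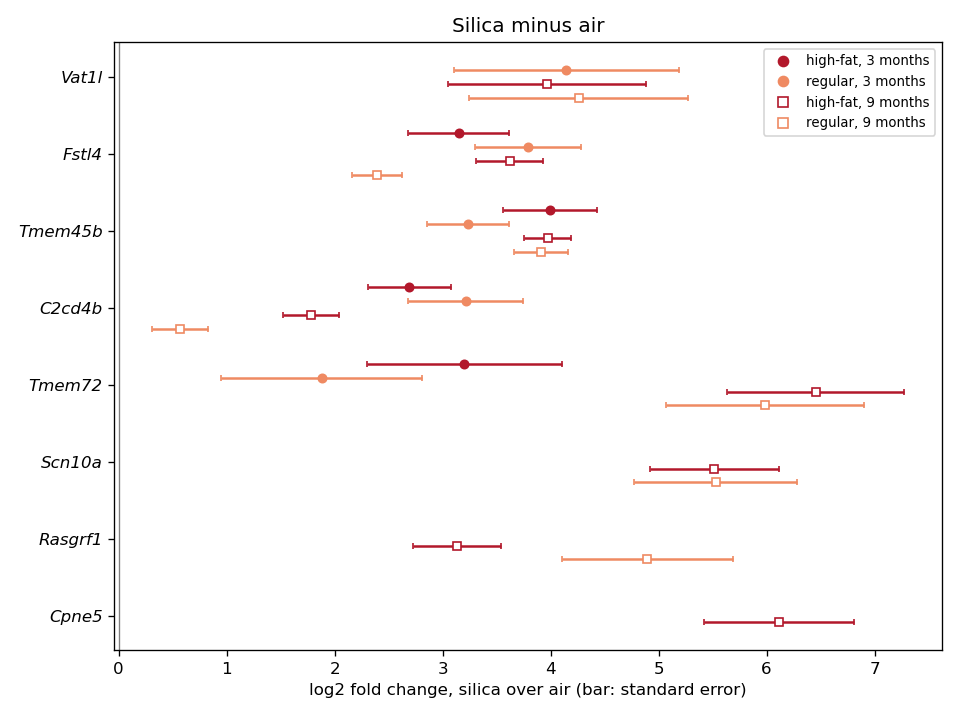
Log2 fold change of silica over air (horizontal axis) for each gene by diet and time, with its standard error. Only genes that passed the filter on low counts are drawn, and Vat1l at 3 months on the high-fat diet and Cpne5 at 9 months on the regular diet are left out because the air group held 3 or fewer counts. Tmem72 reaches 6.45 and 5.98 (high-fat, regular) at 9 months, and C2cd4b moves the other way in time, to 1.78 and 0.57.

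The genes thus fell into time patterns that are given here as a description, since the tables of the 2 times were made separately. Mean silica levels of Tmem72 were 1.96 ± 1.32 and 12.8 ± 1.61 CPM at 3 and 9 months on the high-fat diet (SD, n = 5 and 6). Those of Cpne5 were 1.13 ± 0.602 and 13.5 ± 3.3 CPM, and those of Scn10a 1.16 ± 0.628 and 9.94 ± 1.76 CPM. These 3 genes and Rasgrf1, at 0.0901 ± 0.132 and 3.92 ± 1.19 CPM, were late, a word used here for these levels only. Vat1l was at 5.23 ± 2.13 and 4.1 ± 1.06 CPM. Fstl4 and Tmem45b lay between, at 6.04 ± 1.26 and 16.5 ± 1.92 CPM and at 8.31 ± 1.27 and 19.5 ± 1.86 CPM. The late genes other than Rasgrf1 were already higher on average with silica at 3 months, though silica and air rats overlapped. On the high-fat diet the log2 fold change of Tmem72 was 3.20 then, and the ratios of summed scaled counts of Scn10a and Cpne5 were 3.96 and 3.86. In the order of fold changes over all genes tested, Vat1l was number 3 on the regular diet at 3 months. Tmem72 was number 3 on the high-fat diet at 9 months and 17 at 3 months, and C2cd4b was number 28 at 3 months and 211 at 9 months on that diet.

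The diet comparisons did not choose the genes, and are tested. The levels that they compare also entered the silica rises that did, so these tests are not fully independent of the choice. Fstl4 was the only one of the 8 called in either time at an adjusted p below 0.05 by edgeR's quasi-likelihood test with Benjamini-Hochberg adjustment over all genes. Among silica rats at 3 months it was lower on the high-fat diet, 6.04 ± 1.26 against 10.9 ± 2.24 CPM (SD, n = 5 each), a log2 fold change of -0.85 ± 0.20 with an adjusted p of 0.04 from edgeR. All 5 HFD silica rats lay below all 5 RD silica rats, as was the case for 1.23% of all genes. In this comparison 1 of the 5 genes tested was called, where 0.702% of all genes were. These silica levels also entered the rises that chose the genes, so nothing is read from that count. The call of Fstl4 lay close to the threshold, while the size of the difference changed little. It was kept with DESeq2 (-0.85, adjusted p 0.017), RLE size factors (-0.85, 0.037), no filter on low counts (-0.85, 0.027) and the 2 groups alone (-0.84, 0.046). It was lost with limma voom and sample weights (-0.89, adjusted p 0.059), with edgeR's earlier quasi-likelihood settings (-0.85, 0.10) and after adjusting for the ribosomal RNA share (-0.76, 0.075). On leaving out each silica rat it was kept in 3 of 10 fits (adjusted p 0.027 to 0.038). It was lost without RD silica rat 3, 4 or 5 or HFD silica rat 2, 3, 4 or 5, with adjusted p of 0.069 to 0.10 and log2 fold changes of -0.88 to -0.73. Among air rats at 3 months 0 of 5 genes were called, where 2.95% of all genes were, and 0 had an unadjusted p below 0.05 or were called by DESeq2 or limma voom. These air rats held few counts of most of the genes (HFD, RD: 3 and 5 of Vat1l, 6 and 6 of Tmem72, 16 and 22 of Tmem45b). A diet difference could hardly have been detected at such counts, so nothing is read from the 0 calls. Fstl4 differed there by -0.21 ± 0.65, a value that changed sign with some settings.

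At 9 months Fstl4 was lower on the high-fat diet in air lungs, 1.33 ± 0.489 against 3.6 ± 1.6 CPM (SD, n = 6 each), a log2 fold change of -1.42 ± 0.34 with an adjusted p of 0.004 from edgeR. RD air rat 1, at 0.978 CPM, fell within the HFD air range, so the groups overlapped. This was 1 of the 8 genes, in a comparison where 15.2% of all genes were called. The ribosomal RNA share differed between the same 2 groups, 6.21% against 1.22%, without overlap, and with it as a covariate the Fstl4 value was -0.49 with an adjusted p of 0.93 and 1 gene of all 15276 was called. Its part in the difference cannot be told apart from diet here. Rasgrf1 had 17 counts in HFD air against 4 in RD air lungs, a log2 fold change of 1.76 ± 0.86 and an adjusted p of 0.085 from edgeR. With so few counts nothing is read from it, nor from its 2.01 (adjusted p 0.036) without HFD air rat 2, which had none.

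Among silica rats at 9 months 0 of the 8 genes were called by edgeR for diet, where 3.52% of all genes were, and 5 of 8 had an unadjusted p below 0.05, all 5 higher on the high-fat diet. Of all 15276 genes tested 17.7% had an unadjusted p below 0.05 in this comparison, and 9.15% had one and were higher on that diet. The silica levels compared here also entered the rises that chose the genes, so nothing is read from the count of 5. Tmem72 averaged 12.8 ± 1.61 CPM on the high-fat and 8.18 ± 3.47 CPM on the regular diet (SD, n = 6 and 5), a log2 fold change of 0.61 ± 0.19 with an adjusted p of 0.053 from edgeR. C2cd4b averaged 5.26 ± 1.32 and 3.3 ± 0.722 CPM (HFD, RD), 0.71 ± 0.23 with an adjusted p of 0.073. Cpne5 averaged 13.5 ± 3.3 and 8.99 ± 2.81 CPM, 0.55 ± 0.18 with an adjusted p of 0.079. Tmem45b and Scn10a differed by 0.35 ± 0.12 and 0.45 ± 0.18, with adjusted p of 0.11 and 0.16. The diets overlapped for all of them, and the remaining values, of Vat1l, Fstl4 and Rasgrf1, were -0.14, -0.19 and -0.01. Which gene passes depended on single rats: 2 were called without HFD silica rat 1 (Tmem72 at 0.68, adjusted p 0.032, and Cpne5 at 0.69, adjusted p 0.015) and 1 without RD silica rat 3 (Tmem72 at 0.91, adjusted p 0.0061). Tmem72 was also called with limma voom, at 0.70 and an adjusted p of 0.035, and DESeq2 called 0 of the 8. The ribosomal RNA share was 7.66% in HFD silica and 3.67% in RD silica lungs, and its part in these differences was not tested beyond the covariate fits.

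**Figure D3:**
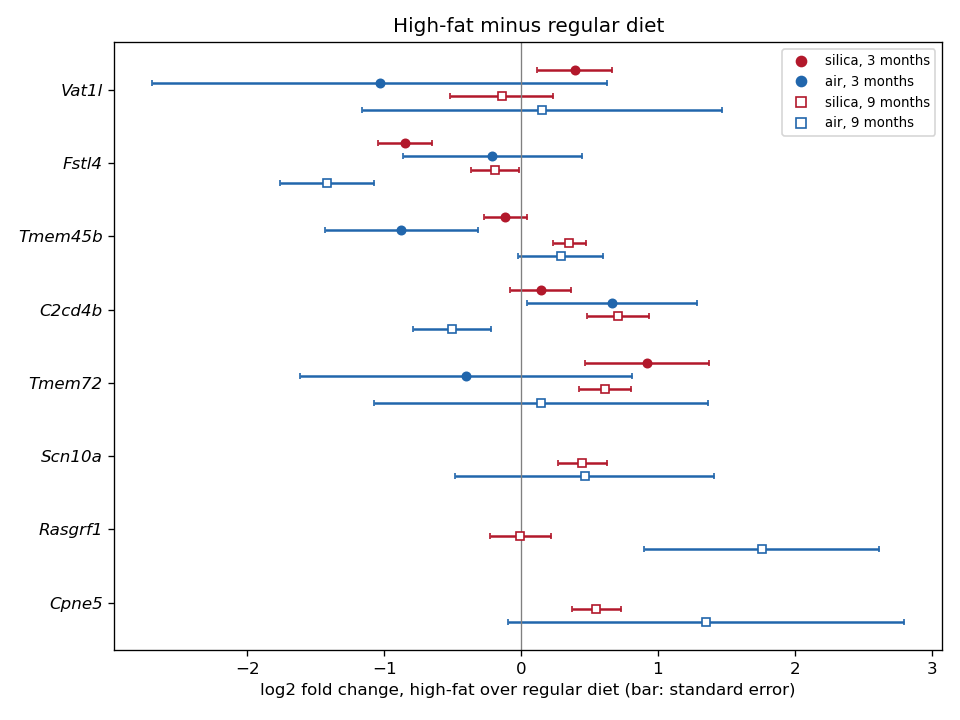
Log2 fold change of the high-fat over the regular diet (horizontal axis), with its standard error, in silica and in air lungs at each time. Only Fstl4 passed the threshold, in silica lungs at 3 months (-0.85) and in air lungs at 9 months (-1.42).

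The interaction, the silica effect on the high-fat diet minus that on the regular diet, is built from the contrasts that chose the genes and is given as a description. At 3 months 0 of 5 genes lay past an adjusted p of 0.05 with edgeR, DESeq2 or limma voom, where edgeR put 0% of all genes there, and 0 had an unadjusted p below 0.05. At 9 months 0 of 8 did with edgeR, where 1.09% of all genes did, 0 with limma voom and 1 with DESeq2, and 3 had an unadjusted p below 0.05, as 14.2% of all genes had. Nothing is read from these counts. Fstl4 had a value of 1.23 ± 0.38 on the log2 scale at 9 months, C2cd4b one of 1.21 ± 0.36 and Rasgrf1 one of -1.76 ± 0.89. For Fstl4 and Rasgrf1 the 2 diets differed more in their air than in their silica levels, and for C2cd4b the diet difference was 0.71 in silica and -0.50 in air lungs.

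Whether the genes varied together from rat to rat was asked within the silica groups, since the rise itself links them. Deviations of log2 CPM from the group mean were correlated over the 21 silica rats, 28 pairs of genes and 8 relations with the ribosomal RNA share, 36 in all, with p from permutation of rats within groups. Of the 28 pairs, 22 were positive, with a median r of 0.27 and a range of -0.37 to 0.84, and 2 were called. Scn10a and Cpne5 had r = 0.84 and rho = 0.81 (permutation p = 0.00023 and 0.00022, adjusted p = 0.0083 and 0.0079). Within the 10 silica rats at 3 months r was 0.95 and within the 11 at 9 months 0.54. It was 0.74 without the 2 rats farthest out in Scn10a (permutation p = 0.0060). Rasgrf1 and Cpne5 had r = 0.76 and rho = 0.72 (permutation p = 0.00063 and 0.0014, adjusted p = 0.011 and 0.025), with 0.87 at 3 and 0.53 at 9 months, and 0.61 without the 2 rats farthest out in Rasgrf1 (permutation p = 0.0066). Scn10a and Rasgrf1 had r = 0.69, which did not pass (adjusted permutation p = 0.069), and r was 0.11 at 9 months.

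These relations rest on low counts at 3 months, when Rasgrf1 had 0 to 4 counts in a silica rat and Cpne5 1 to 12. Without RD silica rat 4 at 3 months, the rat with the most counts of Scn10a on its diet, neither pair was called (r = 0.78 and 0.67, adjusted permutation p = 0.054 and 0.060), and neither was in the 9-month rats alone. Rasgrf1 and Cpne5 were also not called without HFD silica rat 1 at 9 months (r = 0.73, adjusted permutation p = 0.061). No gene was called with the ribosomal RNA share. The most negative, Fstl4, had r = -0.58 (permutation p = 0.029, adjusted p = 0.15), and Scn10a had -0.46 over all and -0.82 within the 11 rats at 9 months. Vat1l and Scn10a were the most negative pair, with r = -0.37.

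**Figure D4:**
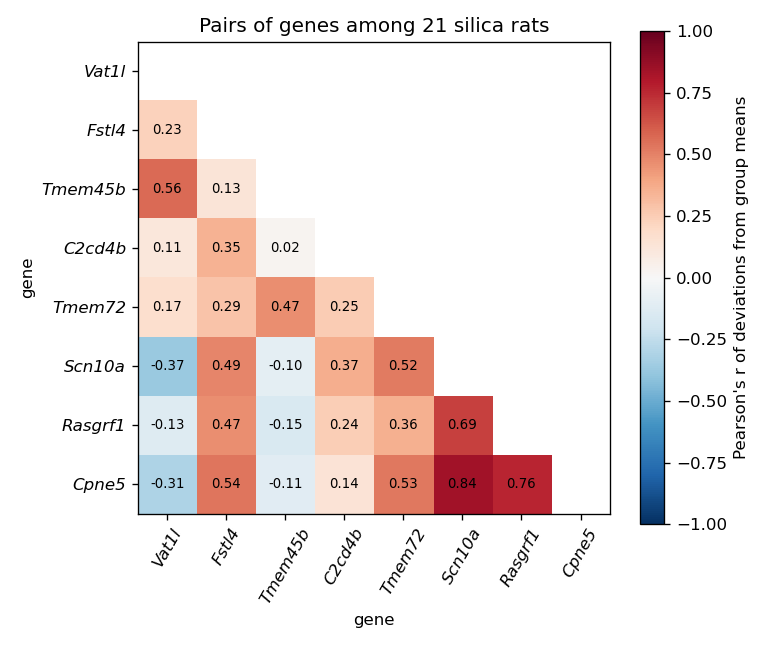
Pearson's r (colour and number) for the 28 pairs of genes, from deviations of log2 CPM from the group mean in 21 silica rats. The block of Scn10a, Rasgrf1 and Cpne5 holds r of 0.69, 0.84 and 0.76, and the values of Vat1l with the same 3 genes are negative.

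**Figure D5:**
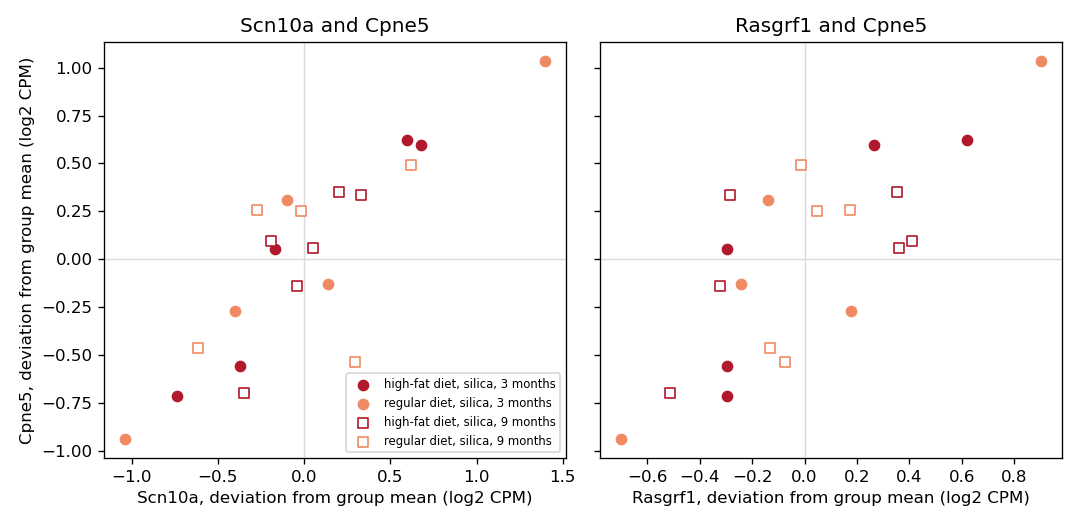
Deviation from the group mean (log2 CPM) of Scn10a (left) and Rasgrf1 (right), horizontal, against that of Cpne5, vertical; each point is a silica rat, filled at 3 and open at 9 months. The 3-month rats span the wider range, and the point farthest up and to the right is RD silica rat 4.

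RefSeq promoter windows on GRCr8, which run from 250 bases before to 50 bases after a start site, were held for 7 of the 8 genes in 13 windows, 7 of them of C2cd4b. The windows of Scn10a, Rasgrf1 and Cpne5, the late genes in the called pairs, and of Fstl4, the gene called for diet, are shown so that they can be set side by side. They lie at chr8:128340249-128340548 on the minus strand (Scn10a), chr8:99324736-99325035 on the plus strand (Rasgrf1), chr20:7290547-7290846 on the minus strand (Cpne5) and chr10:37412038-37412337 on the plus strand (Fstl4). Capitals mark matches, on either strand, to any of 7 short motifs that were searched.
Scn10a: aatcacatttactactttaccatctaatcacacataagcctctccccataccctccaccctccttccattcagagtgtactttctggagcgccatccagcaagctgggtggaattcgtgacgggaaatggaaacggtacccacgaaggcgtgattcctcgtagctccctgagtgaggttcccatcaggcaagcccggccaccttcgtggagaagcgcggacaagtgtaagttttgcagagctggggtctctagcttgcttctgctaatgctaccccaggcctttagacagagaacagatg
Rasgrf1: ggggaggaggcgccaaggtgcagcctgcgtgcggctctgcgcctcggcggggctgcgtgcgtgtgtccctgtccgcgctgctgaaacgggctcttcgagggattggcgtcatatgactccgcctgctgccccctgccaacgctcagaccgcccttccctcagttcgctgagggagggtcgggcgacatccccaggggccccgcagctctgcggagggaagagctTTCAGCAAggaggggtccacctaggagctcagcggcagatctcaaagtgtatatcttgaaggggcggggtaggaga
Cpne5: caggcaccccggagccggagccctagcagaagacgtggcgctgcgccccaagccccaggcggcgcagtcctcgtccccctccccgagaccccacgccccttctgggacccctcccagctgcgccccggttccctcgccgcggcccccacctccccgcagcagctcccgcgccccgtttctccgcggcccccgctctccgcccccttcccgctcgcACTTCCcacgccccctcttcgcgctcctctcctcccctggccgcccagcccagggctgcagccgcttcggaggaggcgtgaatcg
Fstl4: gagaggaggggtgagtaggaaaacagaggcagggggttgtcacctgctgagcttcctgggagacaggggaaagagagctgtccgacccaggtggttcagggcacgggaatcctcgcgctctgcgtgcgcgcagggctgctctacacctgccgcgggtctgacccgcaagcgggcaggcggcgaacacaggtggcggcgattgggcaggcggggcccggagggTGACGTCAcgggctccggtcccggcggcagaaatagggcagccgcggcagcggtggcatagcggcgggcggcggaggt
The motifs were AP-1 (TGANTCA), the cyclic AMP response element (TGACGTCA), C/EBP (TTGCNNAA), the PU.1 core (GGAAGT), STAT (TTCNNNGAA), the E-box (CACGTG) and the TATA box (TATAAA). The Scn10a window held none of them. The Rasgrf1 window held 1 C/EBP match, as 10.6% of all 33469 windows do, and the Cpne5 window 1 PU.1 core, as 22.6% do. Fstl4 held the full cyclic AMP response element at position -28 from its start site, found in 1.83% of windows. No motif was shared by these 3 late genes. Their windows differed in base composition, with 52.3% G and C in Scn10a, 66.3% in Rasgrf1 and 76.3% in Cpne5. Windows of Vat1l and Tmem72 held no match, and those of C2cd4b held AP-1, C/EBP, PU.1 core and TATA box matches in 2 of its 7 windows. A match is a run of letters only, and no binding was measured.

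Most tested relatives of the 8 genes were not called higher with silica, and neither were most of all genes tested. Of 49 listed relatives in 7 families 48 are in the tables, with 34 tested at 3 and 33 at 9 months. By edgeR's quasi-likelihood test at an adjusted p below 0.05, 1 was higher and 4 lower with silica on the high-fat diet at 3 months, and 1 higher and 6 lower on the regular diet. At 9 months 8 were higher and 11 lower on the high-fat diet, and 5 higher and 10 lower on the regular diet. Over all genes 9.23% and 10.2% were higher at 3 months (HFD, RD) and 26.7% and 24.5% at 9 months, and 8.19%, 6.6%, 24.9% and 20.6% were lower. The median log2 fold change of the relatives was -0.03 and -0.11 at 3 months (HFD, RD) and -0.04 and -0.09 at 9 months, with that of all genes within 0.01 of 0. The 3-month counts fell to 3 of 34 on the high-fat diet without HFD air rat 3, HFD silica rat 2 or HFD silica rat 4, and to 4 of 34 on the regular diet without RD air rat 3 or RD silica rat 4.

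The follistatin-like and SPARC family, to which Fstl4 belongs, went the other way from Fstl4. Of 8 tested, 4 and 5 were lower at 3 months (HFD, RD) and 0 higher, and 6 and 5 were lower at 9 months with 1 higher in each. Smoc2, a matricellular protein, fell at 9 months to 18.2 ± 1.55 CPM in HFD silica, against 25.9 ± 2.32 in HFD air lungs (SD, n = 6 each), a log2 fold change of -0.50 ± 0.08 with an adjusted p of 7.5e-06 from edgeR. Sparcl1, which is anti-adhesive, fell by 0.67 on the log2 scale (adjusted p 1.4e-06, edgeR) and Fstl1, which modulates bone morphogenetic protein signals, by 0.67 (adjusted p 7.4e-07, edgeR) in that comparison. The fibroblast marker list was lower in the same lungs: its summed level over 6 genes was 774 to 857 CPM in HFD silica, against 1180 to 1302 CPM in HFD air lungs, with 5 of 5 tested genes lower and Col1a2 at 0 in every 9-month group. Its part in the family's fall was not tested.

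Among 12 listed sodium channel subunits, 11 in the tables, Scn4a, the skeletal muscle channel, was the only one called higher with silica. It stood at 7.70 ± 0.991 CPM in HFD silica, against 2.86 ± 0.765 in HFD air lungs at 3 months (SD, n = 5 each), a log2 fold change of 1.43 ± 0.20 with an adjusted p of 1.6e-05 from edgeR. At 9 months it rose by 1.01 on the high-fat and 1.40 on the regular diet (adjusted p 5.2e-05 and 2.6e-05, edgeR). On the regular diet at 3 months 0 of 7 sodium channels tested were called. Scn8a was lower on the regular diet at 9 months, a log2 fold change of -0.64 (adjusted p 0.017, edgeR). Of 7 Ras exchange factors Rasgrp3, of B cells and endothelium, fell by 0.55 and 0.61 at 9 months (HFD, RD; adjusted p 1.1e-07 and 6.2e-08, edgeR) and Rasgrp2, of platelets, by 0.54 and 0.30. Rasgrp4, of mast cells and neutrophils, rose by 0.51 and 0.46. Cpne4 fell by 0.94 and 0.70 at 9 months and Cpne8 rose by 0.27 on the high-fat diet, where of 5 copines tested 1 was higher and 1 lower. Of the C2cd4 family C2cd4d rose to 2.52 ± 0.759 CPM in HFD silica, against 1.09 ± 0.415 in HFD air lungs at 9 months, a log2 fold change of 1.18 with an adjusted p of 6.8e-04 from edgeR. Vat1, the closest relative of Vat1l, rose by 0.36 and 0.51 at 9 months (HFD, RD; adjusted p 5.6e-04 and 2.4e-05, edgeR), and Ptgr1 fell by 0.57 and 0.68. Tmem45a, the relative of Tmem45b, had too few counts to be tested.

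The genes most like each of the 8 over all 42 rats, by Pearson's r of log2 CPM among 13047 candidates, are given as a description, since likeness over all rats includes the difference between silica and air. Tmem45b was most like Chi3l1 (r = 0.97), a chitinase-like protein, C3 (0.96), the central complement component, and S100a9 (0.96), a neutrophil protein. Tmem72 was most like Daam2 (0.95), Retnla (0.95), a protein of alternatively activated macrophages, and Chia (0.95), a chitinase. Among those most like Scn10a were Chia (0.96) and Ctsh (0.95), a cathepsin. Rasgrf1 was most like Esr1 (0.94), Stx18 (0.91) and Tmtc1 (0.91), and Cpne5 most like Tmtc1 (0.95), C4b (0.95) and Fnip2 (0.95). Fstl4 was most like Cldn10 (0.94), Slc13a2 (0.94) and Mapkapk3 (0.94), and Vat1l most like St6gal1 (0.93), Prkca (0.91) and Slc16a11 (0.91). C2cd4b had the weakest likeness, with Tmem132c (0.84), Cyb5b (0.83) and Lrrc42 (0.81). Within silica groups the r was lower in each case, and was 0.78 for Tmem45b with S100a9. Each rat is its own library, and both tables were scaled together for these values.

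Cell types moved with silica in the same lungs, and in bulk tissue fewer cells of a type and less RNA per cell cannot be told apart. The summed level of 7 neutrophil genes was 447 to 589 CPM in HFD silica, against 122.4 to 290 in HFD air lungs at 3 months, and 922 to 1183 against 190 to 316 at 9 months. On the regular diet it was 542 to 813 CPM in silica, against 157 to 210 in air lungs at 3 months, and 546 to 1421 against 140.8 to 415 at 9 months. Of 6 neutrophil genes tested, edgeR called 2 and 5 higher at 3 months (HFD, RD) and 4 and 5 at 9 months. Alveolar type 2 genes, 8 of 8 listed, summed to 23272 to 33770 CPM in HFD silica, against 16986 to 18314 in HFD air lungs at 3 months, and to 29026 to 37475 against 14541 to 18206 at 9 months. Those of regular-diet lungs summed to 24980 to 33382 CPM in silica, against 17422 to 20760 in air lungs at 3 months, and to 27273 to 32819 against 16720 to 24484 at 9 months. Of these 8, 6 and 6 were called higher at 3 months (HFD, RD) and 0 lower. At 9 months 6 and 5 were called higher, and 1 was lower on each diet. For 8 of 10 listed alveolar macrophage genes the sum was 521 to 612 in HFD silica against 416 to 480 CPM in HFD air lungs at 3 months, and 718 to 876 against 402 to 492 at 9 months. On the regular diet it was 610 to 908 CPM in silica against 486 to 586 in air lungs at 3 months, and 797 to 1037 against 514 to 659 at 9 months. Of 7 macrophage genes tested at 3 months, 3 were called higher and 1 lower on each diet. Of 8 tested at 9 months, 7 and 6 were called higher (HFD, RD) and 1 lower on each diet. Alveolar type 1 genes were lower with silica, 5 and 6 of 6 called at 3 months (HFD, RD) and 6 and 6 at 9 months, with sums of 2868 to 3440 CPM in HFD silica against 4148 to 4857 in HFD air lungs at 9 months. In these lists Retn, of neutrophils, was at 0 in RD air lungs at 3 months and no other gene was at 0 in a group. Other lists also moved at 9 months. Of genes tested, 5 and 5 of 5 plasma cell and 3 and 6 of 7 T cell genes were called higher (HFD, RD) and 0 lower. Of ciliated genes 6 and 4 of 6 and of endothelial genes 6 and 5 of 6 were called lower, and 0 higher. The part of these cell types in the rises of the 8 genes was not tested.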

How the data were processed

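The authors deposited 2 tables of raw counts per gene symbol, 1 for 3 months (19 rats) and 1 for 9 months (23 rats), with a column for each rat. Per the labels' protocols, libraries were made from total lung RNA with a stranded kit after depletion of ribosomal RNA. Per the submitters' processing notes, reads were handled with TopHat2 2.0.9, HTSeq 0.6.1, Bowtie2 2.2.9, Trimmomatic 0.35, SAMtools 0.1.19 and bcl2fastq 2.19 (roles not stated) and the build was Rnor_6.0. Their settings, the annotation release and the strand setting of the counting are not given in the sources used here, so reads of overlapping genes (Fstl4, Tmem45b, Scn10a and Cpne5 overlap other loci in RefSeq's GRCr8 annotation) may be shared.

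Counts were scaled by TMM and tested with edgeR 4.0.16 (R 4.3.3) by its quasi-likelihood test, after filterByExpr, with 1 fit per time point over its 4 groups and Benjamini-Hochberg adjustment over all genes tested; a gene was called at an adjusted p below 0.05. Standard errors are those of the quasi-likelihood fit. CPM are counts over TMM-scaled library totals. Ratios of summed counts carry exact 95% intervals that cover counting error only. Correlations used 100000 permutations of rats within groups (10000 without the 2 farthest rats) on log2 CPM with a prior count of 2. Limma 3.58.1 voom, DESeq2 1.42.0, other scaling, no filter, a ribosomal RNA covariate, fits of 2 groups and leaving out each rat were alternatives. The pipeline was tested on simulated data.

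The 8 genes, the lists of relatives and markers and the motifs were chosen with earlier results of these data known. Named besides the 8 are up to 3 relatives per list with the smallest p among those called, and the 3 genes most like each gene with a mean log2 CPM of at least 0, leaving out immune receptor segments and symbols that begin with LOC, RGD, AABR, MGC, NEWGENE, Mir, Rn or a digit. A few genes of these lists are not reported here. Promoter sequences are RefSeq's.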

Additional observations from a re-analysis of the deposited data

Results flagged for a closer look

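In 5 of 64 groups of a gene the farthest rat lay beyond Dixon's 95% limit for its distance from the next rat. Chance alone flags about 1 group in 20 where values are normally distributed. Many groups hold a few counts a rat, and that rate may not apply to them. C2cd4b was at 21 CPM (170 counts) in RD silica rat 3 at 3 months, with the next rat of 5 at 11.7 CPM. Vat1l was at 13.3 CPM (89 counts) in RD silica rat 3 at 9 months, with the next rat of 5 at 3.45 CPM. C2cd4b was lowest in RD air rat 3 at 9 months, at 0.865 CPM (4 counts), with the next rat of 6 at 2.26 CPM. Tmem72 was at 0.404 CPM (3 counts) in RD air rat 6 and at 0.436 CPM (2 counts) in HFD air rat 6 at 9 months, values of a few counts that are above the next rats of 6 at 0.126 and 0.153 CPM. The cause was not tested for any of them.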

How the results depend on the processing

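No paired analysis was possible because no rat number, litter or cage in the labels links rats of different groups. Fits at 3 months in which Tmem72 did not pass the filter on low counts gave no value for it. Of the 24 silica fold changes printed, 8 of 419 recomputed values moved by more than 1.5 times, in 7 of the 24, and none changed sign. They are those of Tmem72, Fstl4 and Vat1l without single rats, as given above, Vat1l on the regular diet at 9 months with limma voom (3.54), and Scn10a at 9 months with the ribosomal RNA covariate. Genes called for diet in silica lungs at 3 months numbered 0 with limma voom, with edgeR's earlier settings and with the ribosomal RNA covariate, and 0 to 1 on leaving out each rat. In air lungs at 9 months there were 0 with the covariate and 1 to 2 on leaving out each rat. In silica lungs at 9 months there was 1 with limma voom and 0 to 2 on leaving out each rat. For the interaction at 9 months there was 1 with DESeq2 and 0 to 1 on leaving out each rat. The relatives called at 3 months numbered 3 on the high-fat diet with the covariate and 3 to 7 on leaving out each rat, and 4 to 8 on the regular diet. Correlations called were 1 in 3-month rats, 0 in 9-month rats and 0 to 4 on leaving out each rat, the 4 without RD silica rat 5 at 3 months. The diet value of Fstl4 in air lungs at 3 months changed sign with limma voom (0.26), and without RD air rat 4 (0.52) or HFD air rat 2 (0.017), with a range of -0.59 to 0.52 on leaving out each rat, and that in silica lungs at 9 months with the covariate (0.59), all of them uncalled. Of all recomputed counts of calls 191 were within 1.5 times of those reported and 28 were not. Where air lungs held a few counts, depth limits the fold change. The causes of these shifts were not tested.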

Other observations

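The nearest tested gene on each side of the 8 genes in RefSeq's GRCr8 annotation, 16 neighbours in all, was looked up after the values of the 8 had been seen. By edgeR's quasi-likelihood test 3 of 16 were higher and 1 lower with silica on the high-fat diet at 3 months, and 5 higher and 1 lower on the regular diet. At 9 months 8 were higher and 2 lower on the high-fat diet, and 9 higher and 3 lower on the regular diet. Of all genes tested 9.23% were higher and 8.19% lower on the high-fat and 10.2% and 6.6% on the regular diet at 3 months, and 26.7% and 24.9% (high-fat) and 24.5% and 20.6% (regular) at 9 months. The largest log2 fold change of a neighbour was 1.36 and 1.25 at 3 months (HFD, RD), of Rassf4 beside Tmem72, and 1.76 and 1.55 at 9 months, of Rab44 beside Cpne5. Ctsh, a cathepsin gene beside Rasgrf1 and one of the genes most like Scn10a, changed by 0.84 and 0.85 at 3 months (HFD, RD), when Rasgrf1 had 0 to 4 counts in each silica rat, and by 1.72 and 1.46 at 9 months (adjusted p between 8.7e-14 and 7.8e-06 in the 4 comparisons, edgeR).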
